A study of Homo sapiens with 4 samples.

Results

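The 10 genes described here set whether a cell goes on dividing or stops: the cyclins CCNG2, CCND1 and CCNE2, the CDK inhibitors CDKN1A, CDKN1B and CDKN1C, the growth factor-responsive transcription factor MYC and its antagonist MXI1, and the transcriptional repressors BHLHE40 and BHLHE41. They were chosen by name out of 18417 genes with a value, each from the probe set that names it alone, and 1 probe set per gene was found for 10 of 10. The members and the gene lists used below were chosen with earlier results of these data known. Their counts beside the shares over all genes therefore describe these genes and are no independent test. The cells were HT1080, an established human fibrosarcoma line, cultured for 36 h under 21% oxygen, the control, or under 1% oxygen, the hypoxic condition, in both cases in low-serum medium from before the start. Total RNA stands for the expression level, and ER-RNA is the RNA recovered with an endoplasmic reticulum (ER) fraction prepared with a commercial kit. According to the methods, the cells used for fractionation had been given cycloheximide, which holds ribosomes on their transcripts.

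Each of the 4 arrays (Affymetrix Human Gene ST) carried RNA pooled from 5 experiments, 1 array for each fraction and oxygen level. The design therefore had no replicates, so differences carry no error between experiments and no p-value, and precision is limited by the number of arrays. Values are on the log2 scale after RMA, which corrects background, normalises arrays and summarises the probes of a probe set, so a difference of 1 is a 2-fold change. Levels of different genes are not set against each other, because each comes from its own probes. A gene passed the expression filter of a fraction if its value exceeded the array median on 1 or both arrays of the pair. This median was 7.41 in control and 7.49 in hypoxia for total RNA and 6.25 and 6.34 for ER-RNA. A change was called, and is written as a rise or a fall below, where the gene differed by more than 1.4-fold with a z-score beyond 3 in either direction. The z-score is the log2 difference divided by the SD over the arrays of a pair, as fitted for probe sets with that mean value. This SD was fitted across probe sets. It is neither the spread of the differences nor an error between experiments.

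Marker genes of cell types matched a mesenchymal line. In total RNA of control cells 8 of 8 mesenchymal markers lay above the array median, against 1 of 5 epithelial, 0 of 4 leukocyte and 0 of 3 endothelial markers. The study checked the ER fraction by its marker proteins. At the level of transcripts, marker genes were compared by another measure than for the cell type, their value in ER-RNA relative to total RNA. By this measure they did not bear out the label. In control cells 15 genes whose proteins are made at the ER had a median of -0.81 in ER-RNA relative to total RNA, with the median of all genes set to 0, whereas 16 genes whose proteins are made in the cytosol had 0.98. Values for ER-RNA are therefore given as values of that fraction and not as a measure of attachment to the ER.

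Cell division is driven by cyclin-dependent kinases (CDKs), which are active only when bound to a cyclin. Cyclin D1, encoded by CCND1, and cyclin E2, encoded by CCNE2, push cells through the G1 phase and into DNA synthesis, while CDKN1A (p21), CDKN1B (p27) and CDKN1C (p57) bind cyclin-CDK complexes and block them. CCNG2 encodes cyclin G2, an unusual cyclin that is most abundant in arrested cells. MYC pairs with MAX to switch on genes for growth, ribosome production and cell-cycle entry, and MXI1 competes with it for MAX and represses such genes. BHLHE40 and BHLHE41, also called DEC1 and DEC2, are basic helix-loop-helix repressors of the clock that also restrain proliferation, and BHLHE40 is a known target of the hypoxia-inducible factors (HIFs).

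Promoter stretches of 6 of the 10 genes are shown because the transcription factors of hypoxia and of the MYC network bind short, related sequences. The HIF core is ACGTG or GCGTG, and the E-box CACGTG is bound by MYC with MAX, by MXI1 with MAX and by BHLHE40 and BHLHE41. All sequences are from RefSeq on GRCh38.p14, 5′ to 3′ on the strand of the gene, each is 30 bases long and lies upstream of an annotated start, and capitals mark a motif or its reverse complement. For CDKN1C, MYC, CCND1 and CCNE2 no stretch is given.
CCNG2, chr4:77157165-77157194, plus strand: tccgcggggagtCACGTGccccgccccctt
MXI1, second start, chr10:110210098-110210127, plus strand: gctccgGCGTGgccaccagtCACGTaagca
MXI1, last start, chr10:110225852-110225881, plus strand: gcgccctgaaacgGCGTGtgcactacgatt
BHLHE40, distal, chr3:4979187-4979216, plus strand: tccaaCACGTGagactcatgtgatgaagcc
BHLHE40, proximal, chr3:4979263-4979292, plus strand: ACGTGcctggagtcacagggtagaaCACGT
BHLHE41, distal, chr12:26125068-26125097, minus strand: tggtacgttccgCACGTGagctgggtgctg
BHLHE41, proximal, chr12:26125038-26125067, minus strand: gtctggccggcgacgcGCGTGccctgtggc
CDKN1A, chr6:36678506-36678535, plus strand: tgccctcctgcagCACGCgaggttccggga
CDKN1B, chr12:12717170-12717199, plus strand: cccctccagcagtCACGCgaccagccaatc

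An E-box CACGTG was present within the 250 bases before the start in CCNG2, BHLHE40 and BHLHE41. Its first letter lay 30 bases before the start in CCNG2, 245 in BHLHE40 and 48 in BHLHE41. Of 35116 promoter windows of the same length in the table, 6.34% held it, as did 8.43% of the windows of genes that passed the expression filter. An E-box reads the same on both strands and always contains ACGTG, so it also counts as ACGTG on each strand. BHLHE40 had 2 further ACGTG matches outside its E-box, starting 174 bases before the start on the gene's strand and 149 on the other. In MXI1 the second annotated start had GCGTG at 127 and ACGTG on the other strand at 113 bases before it, the one after it had GCGTG at 131, and the first had neither. BHLHE41 had GCGTG on its own strand 14 bases before the start, and CDKN1A and CDKN1B each had it on the strand opposite the gene, 195 and 185 bases before the start. Over all windows, ACGTG was found in 18.5% and GCGTG in 32.2%, and over windows of genes that passed the expression filter in 22.2% and 42.8%. A match is a string of letters, not a measured binding site. Genes that rose and genes that were not called both held such matches, and which start of MXI1 the measured transcripts came from was not tested.

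In total RNA, 3 of the 10 genes rose in hypoxia, namely CCNG2, MXI1 and BHLHE40, where 2.32% of the 11530 genes that passed the filter did. None of the 9 members that passed the filter fell, where 7.45% of genes did. With only 9 genes that could be called, 0 falls does not set the members apart from this share. In ER-RNA, where 10 of 10 passed, CCNG2, MXI1 and BHLHE40 rose as well, against 1.12% of 11876 genes, and CCNE2 fell, against 8.25%. The 3 genes that rose in both fractions stand beside 0.885% of the 10851 genes that passed in both. No member fell in both, where 4.56% did, and with so few members this does not set them apart either. The other 6 genes, BHLHE41, the 3 CDKN1 inhibitors, MYC and CCND1, were called in neither fraction, and their log2 differences lay between -0.35 and 0.27 in total RNA and between 0.09 and 0.27 in ER-RNA. Over the 10 genes the median log2 difference was 0.02 for total RNA and 0.19 for ER-RNA, beside 0.03 and 0.06 over all 18417 genes. Over the genes that passed the filter the medians were -0.06 and -0.04. As bulk RNA was measured, a change in every cell and a change in the share of cells that express a gene cannot be told apart.

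**Figure D1:**
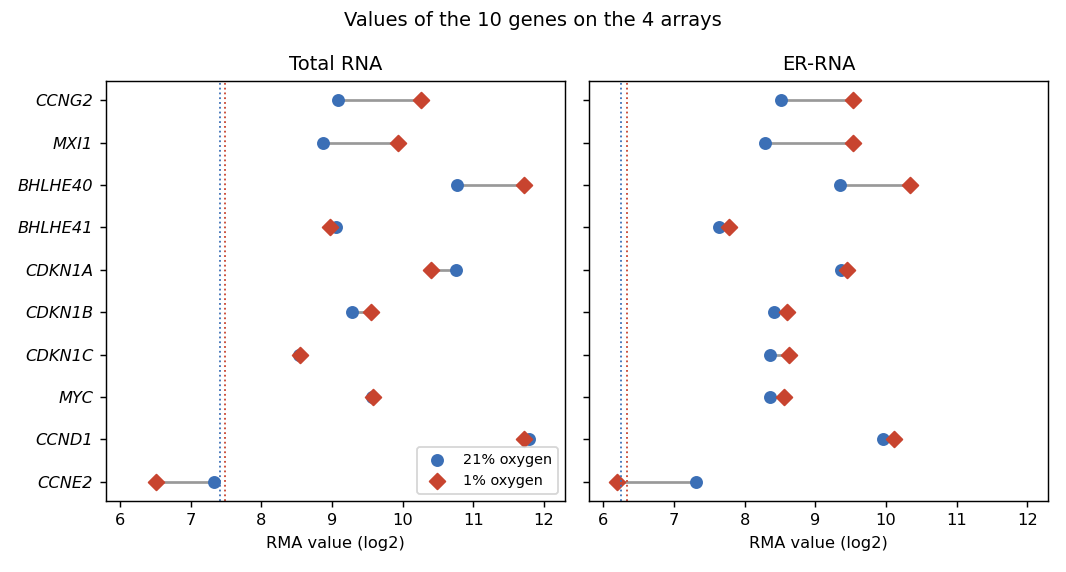
RMA values (log2) of the 10 genes in total RNA (left) and ER-RNA (right), 1 array per point, with circles for 21% oxygen, diamonds for 1% oxygen and dotted lines at the median of each array. CCNG2, MXI1 and BHLHE40 were higher in hypoxia in both fractions by between 0.95 and 1.25 on the log2 scale, and CCNE2 differed by -0.81 in total RNA and by -1.13 in ER-RNA.

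CCNG2, the cyclin of arrested cells, had a log2 value of 9.09 in control and 10.26 in hypoxia in total RNA, and 8.51 and 9.54 in ER-RNA. The 1% oxygen array was the higher of the pair in both fractions. The differences were 1.17 and 1.02 on the log2 scale, with z-scores of 4.19 and 3.18. Of the genes that passed the filter, 99.1% had a lower difference than CCNG2 in total RNA, and 99.3% did in ER-RNA. When each pair of arrays was centred on its median difference, the ER-RNA value of CCNG2 was 0.94 with a z-score of 2.75 and the call there was lost.

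MXI1, the MYC antagonist, had log2 values of 8.87 in control and 9.93 in hypoxia in total RNA and of 8.29 and 9.54 in ER-RNA. It rose 2.10-fold in total RNA (log2 difference 1.07, z-score 3.86) and 2.38-fold in ER-RNA (1.25, z-score 3.91). In ER-RNA its difference was the highest of the 10 genes, and 99.6% of the genes that passed the filter there had a lower one. MXI1 was the only member whose 2 calls both held under median centring, quantile normalization and loess within each pair, and at a fold threshold of 2.

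BHLHE40, the repressor also known as DEC1, had log2 values of 10.77 and 11.72 in total RNA and of 9.35 and 10.34 in ER-RNA, in control and hypoxia. Both hypoxia arrays were higher, by 1.93-fold in total RNA (log2 difference 0.95, z-score 3.63) and by 1.98-fold in ER-RNA (0.99, z-score 3.05). The ER-RNA z-score was close to the limit. It fell to 2.63 after median centring and to 2.94 where the SD was fitted only on probe sets that name 1 gene, which ended the call, and both calls ended at a fold threshold of 2. For all 3 genes the SD mattered more than the scaling. An alternative took the SD from the scaled median absolute deviation (MAD) of all differences at a like mean. It measures the spread of the differences, not the SD over a pair, and is wider than the fitted SD. With it, the z-scores in total RNA were 2.81, 2.43 and 2.35 for CCNG2, MXI1 and BHLHE40. In ER-RNA they were 1.89, 2.31 and 1.78, so that none was called in either fraction.

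BHLHE41, the DEC2 paralogue of BHLHE40, did not share its difference. Its log2 values were 9.06 in control and 8.97 in hypoxia in total RNA, and 7.64 and 7.78 in ER-RNA. The differences of BHLHE41 were -0.09, or 0.02 after quantile normalization, and 0.15, both within the middle 50% of the genes that passed the filter. In log2 difference BHLHE41 lay 1.04 below BHLHE40 in total RNA and 0.84 below it in ER-RNA. With 1 array per group the gap between the paralogues could not be tested.

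**Figure D2:**
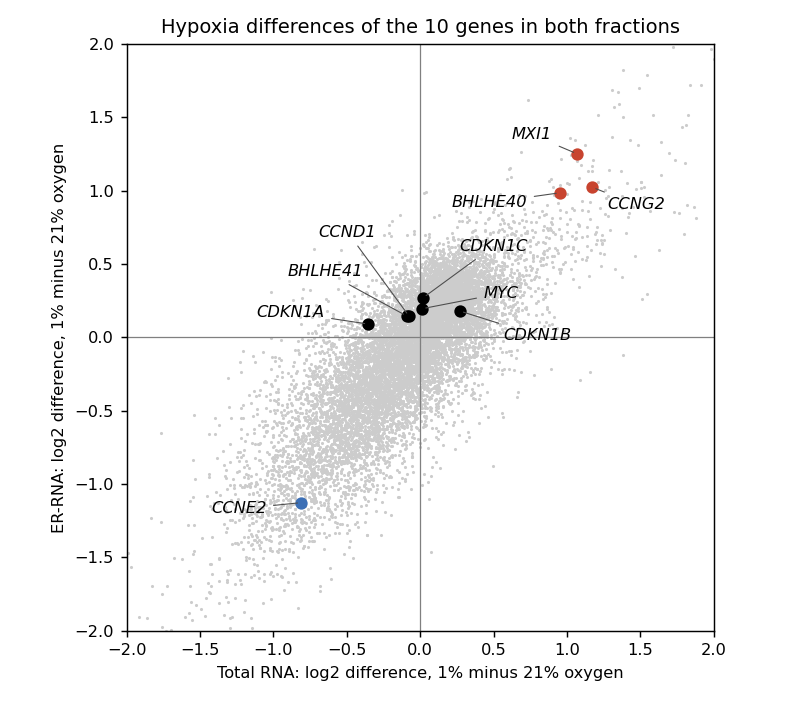
Log2 difference between 1% and 21% oxygen in total RNA (x axis) and in ER-RNA (y axis) for genes that passed the expression filter in both fractions (grey; the axes end at -2 and 2, so genes beyond them are not shown) and for the 10 genes (red for a rise in both fractions, blue for a fall in ER-RNA, black for no call). CCNG2, MXI1 and BHLHE40 lay at the upper right, the 6 uncalled genes close to the origin and CCNE2 at the lower left.

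The inhibitors of the CIP/KIP family were not called in either fraction. CDKN1A, which encodes p21, the inhibitor best known as a p53 target, had log2 values of 10.76 in control and 10.41 in hypoxia in total RNA and 9.36 and 9.45 in ER-RNA. In total RNA the hypoxia array was at 0.782 of control (log2 difference -0.35, z-score -1.27), the lowest difference of the 9 members that passed the filter, and in ER-RNA the difference was 0.09. CDKN1B, which encodes p27, had values of 9.28 and 9.55 in total RNA and 8.42 and 8.60 in ER-RNA. Its hypoxia array was the higher of the pair in both fractions, by 0.27 and 0.18, with z-scores of 0.98 and 0.58. CDKN1C, which encodes the imprinted inhibitor p57, had 8.53 and 8.55 in total RNA and 8.36 and 8.63 in ER-RNA. The difference of 0.02 in total RNA became -0.03 after median centring and so had no stable direction, while that in ER-RNA was 0.27 with a z-score of 0.87.

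Of the other CDK inhibitors, 4 were measured, and 1 fell in each fraction. CDKN3, a phosphatase that acts on CDKs and whose transcript is high in dividing cells, fell in both, with log2 differences of -1.10 and -1.16, beside the 4.56% of genes that fell in both. In total RNA its hypoxia value of 7.07 lay below the array median, so it passed the filter through the control array alone and only a fall could be called, and the call was lost where both arrays had to pass. CDKN2D, the INK4 inhibitor p19, had the highest differences of this list, 0.31 and 0.38, and was not called.

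MYC had log2 values of 9.57 in control and 9.58 in hypoxia in total RNA and of 8.36 and 8.56 in ER-RNA. The pair in total RNA differed by 0.01, or by -0.04 after median centring, and that in ER-RNA by 0.20 with a z-score of 0.63. The antagonist MXI1 thus differed by more than 1 on the log2 scale in both fractions, where MYC differed by no more than 0.20, or 0.36 after quantile normalization. Of the 11 other genes of the MYC, MAX and MLX network, 9 passed the filter in each fraction, and 0 were called in either direction. The shares over all genes were 2.32% (total RNA) and 1.12% (ER-RNA) for rises, and 7.45% and 8.25% for falls. With only 9 genes that could be called, 0 calls does not set the network apart from these shares. MXD1, another MAX partner that opposes MYC, had differences of 0.48 (total RNA) and 0.24 (ER-RNA), and MAX itself had -0.17 and -0.34. MLX, the MAX-like partner, had the lowest difference in total RNA, -0.42, and MLXIPL, its glucose-responsive partner, the highest in ER-RNA among genes that passed the filter, 0.35. In ER-RNA MLXIPL had 6.07 in control, below the array median, and 6.42 in hypoxia, just above it. It thus passed through the hypoxia array alone, and only a rise could be called. MYCN, which did not pass in ER-RNA, had 0.38 there. The medians of the 11 were 0.11 and 0.17.

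Known MYC target genes were lower in hypoxia. Of 18 measured, 6 were called down in total RNA, 10 were in ER-RNA and 5 were in both. The shares of all genes that fell were 7.45%, 8.25% and 4.56%. None of the 18 rose in either fraction, where 2.32% and 1.12% of all genes did. With 17 genes that could be called in each fraction, 0 rises does not set the list apart from these shares. The median log2 difference of the MYC target genes was -0.73 for total RNA and -1.01 for ER-RNA, beside 0.03 and 0.06 over all genes measured. Of the 18, 1 was above 0 in each fraction. Over the genes that passed the filter the medians were -0.06 and -0.04. The 5 that fell in both were NOLC1 (-1.45 in total RNA, -1.08 in ER-RNA), ODC1 (-1.09, -1.22), DKC1 (-0.98, -1.12), POLR1B (-0.92, -1.03) and NOP16 (-0.79, -1.01). NOLC1, DKC1, NOP16 and POLR1B serve the nucleolus and ribosome production, and ODC1 encodes ornithine decarboxylase, the entry enzyme of polyamine synthesis.

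HSPE1, a mitochondrial co-chaperonin, had the lowest difference of the MYC target genes in ER-RNA, -1.67, and -0.84 in total RNA, where it was not called. FBL, the nucleolar methyltransferase fibrillarin, had the highest, 0.04 and 0.11. The number of MYC target genes called down ran from 1 to 12 in each fraction across the alternatives, lowest with the SD from the scaled MAD and highest with the fold threshold alone. What lowered these genes was not tested.

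CCND1, the growth factor-dependent cyclin of G1, had log2 values of 11.79 in control and 11.71 in hypoxia in total RNA, and 9.96 and 10.11 in ER-RNA. The differences were -0.08 and 0.15 with z-scores of -0.32 and 0.46, and that in total RNA was 0.01 after quantile normalization or loess, so CCND1 had no direction there. CCNE2, the cyclin that acts at the entry into DNA synthesis, behaved otherwise. Its log2 values were 7.33 in control and 6.51 in hypoxia in total RNA, both below the medians of their arrays, so it did not pass the filter and was not called there. In ER-RNA CCNE2 had 7.32 in control, above the array median, and 6.19 in hypoxia, below it.

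CCNE2 fell by 1.13 on the log2 scale in ER-RNA, to 0.458 of control, with a z-score of -4.70. The fall did not depend on the scaling or the SD, since its z-score was -3.68 with the SD from the scaled MAD. It depended on the filter, because CCNE2 was not tested in ER-RNA where both arrays had to lie above the median or 1 array above the 75% quantile. Without any filter CCNE2 was also called in total RNA, where the difference was -0.81 with a z-score of -4.42. In ER-RNA CCNE2 passed the filter through the control array alone, so only a lower hypoxia value could have been called there, and 3 of its 4 values lay below the array median.

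Of 20 other cyclins measured, 2 fell in the total RNA pair, 3 fell in the ER-RNA pair and 0 rose. Falls were called for 7.45% and 8.25% of all genes and rises for 2.32% and 1.12%. CCNB1, the mitotic cyclin, fell in both fractions, with log2 differences of -1.32 and -1.33, and so did CCNA2, the cyclin of DNA synthesis and G2, with -1.08 and -1.22. The share of all genes that fell in both was 4.56%. CCNH, a part of the CDK-activating kinase that is named here after its value was seen, fell by 1.00 in ER-RNA and had -0.33 in total RNA. CCNG1, the closest relative of CCNG2, had differences of 0.23 and 0.40 with z-scores of 1.07 and 2.15 and was not called, 0.95 and 0.63 below those of CCNG2. The highest difference in total RNA belonged to CCNL1, a cyclin of the splicing machinery, with 0.74 and a z-score of 2.73. Of the cyclins measured, members included, CCNG2 was the only one called up under the rule used here. Other settings changed this, as 1 other cyclin was called up in total RNA after quantile normalization or loess and 2 were by fold alone, and CCNG2 itself was called in neither fraction with the SD from the scaled MAD.

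Under the rule used here, the called genes of the CDK and CDC25 list all fell. Of 13 CDK and CDC25 genes, with regulators such as WEE1 counted among them, 2 fell in both fractions, where 4.56% of all genes did. Rises were called for 2.32% of all genes in total RNA and for 1.12% in ER-RNA. CDK1, the mitotic kinase, had log2 differences of -1.43 and -1.69, and CDK5, an atypical CDK studied in neurons, -1.26 in each fraction. CDK1 in total RNA had 8.06 in control and 6.63 in hypoxia, the latter below the array median, so that only a fall could be called, and with both arrays required 1 gene of the list fell there. WEE1, which holds CDK1 inactive, had the highest difference in both, 0.73 and 0.65, and was not called. Other settings changed the absence of rises, as 1 gene of the list was called up in total RNA after quantile normalization or loess. This count was also 1 with the mean over probe sets, with the probe set of the lowest mean and by fold alone. By fold alone 1 was called up in ER-RNA as well. The list had medians of -0.26 and -0.23.

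Genes switched on by E2F at the step from G1 to DNA synthesis were lower as well. Of 20 measured, the same 7 fell in both fractions and 0 rose, with median log2 differences of -0.62 and -0.70 and 1 of 20 above 0 in each, beside the 4.56% of all genes that fell in both. MCM6 and UNG in total RNA and MCM6 and GINS1 in ER-RNA lay below the median of the hypoxia array and could only be called as falls, and with both arrays required 5 fell in each fraction. PCNA, the sliding clamp of DNA polymerase, had log2 values of 9.19 and 8.10 in total RNA and of 9.50 and 8.18 in ER-RNA, in control and hypoxia. RRM1, the large subunit of ribonucleotide reductase, had log2 differences of -1.04 and -1.07. The helicase genes had -1.04 and -0.92 (MCM6), -1.04 and -1.04 (CDC45) and -0.95 and -1.30 (GINS1). The DNA repair glycosylase UNG had -0.98 and -0.82, and CCNA2 was the remaining gene. CDT1, a licensing factor, had the highest differences, 0.11 and 0.28. The number of E2F target genes called down ran from 2 to 13 in each fraction across the alternatives.

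Among 20 genes of the RB, E2F and DREAM complexes, 4 fell in the total RNA pair, 3 fell in the ER-RNA pair and 0 rose. Over all genes 7.45% and 8.25% fell, and 2.32% and 1.12% rose. TFDP2, a dimer partner of E2F, was the 1 gene of the list that fell in both, with -0.95 and -1.06, where 4.56% of all genes did. MYBL2, which drives late cell-cycle genes, had -1.10 in total RNA, and LIN52, a subunit shared by DREAM and the MYBL2 complex, -1.23 in ER-RNA. The other calls, named after their values were seen, were FOXM1 (-1.07) and E2F3 (-0.82) in total RNA and E2F6 (-0.72) in ER-RNA. E2F7, a repressive E2F, had the highest differences, 0.57 and 0.37, and was not called. The medians of the list were -0.29 and -0.43.

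**Figure D3:**
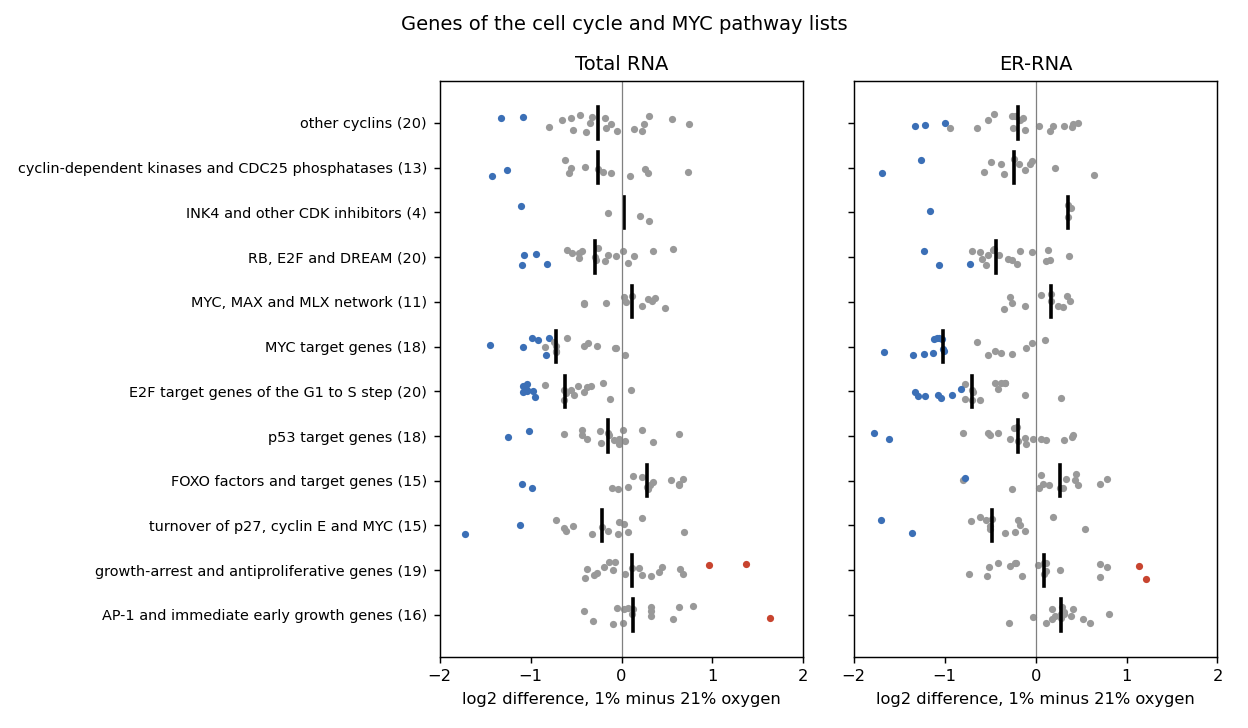
Log2 difference between 1% and 21% oxygen for the genes of 12 cell cycle and MYC pathway lists in total RNA (left) and ER-RNA (right), with the number of genes measured in parentheses, 1 point per gene (red for a rise, blue for a fall, grey for no call, vertical scatter without meaning) and a black bar at the median. MYC target genes and E2F target genes had the lowest medians in both panels, and the rises were NDRG1 and BTG1 among growth-arrest genes and, in total RNA, FOSL1.

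Of 15 genes that control the breakdown of p27, cyclin E and MYC, 2 fell in both fractions and 0 rose, where 4.56% of all genes fell in both. SKP2, the F-box protein that marks p27 for degradation, had log2 values of 10.02 in control and 8.30 in hypoxia in total RNA and of 9.02 and 7.33 in ER-RNA. SKP2 fell in both, with log2 differences of -1.72 and -1.70 and z-scores of -6.33 and -5.67, while CDKN1B, the gene of its substrate, was not called. DTL, an adaptor in the degradation of p21 and CDT1, had -1.11 and -1.36. USP28, a deubiquitinase that stabilises MYC, had the highest differences, 0.68 and 0.54. Protein levels were not measured on these arrays.

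Of 18 other p53 target genes, 2 fell in both fractions and 0 rose. Over all genes 4.56% fell in both, and 7.45% and 8.25% fell in the single fractions. The shares of all genes that rose were 2.32% and 1.12%. The medians of the p53 list were -0.15 and -0.20. PLK2, a polo-like kinase, had log2 differences of -1.25 and -1.61, and TIGAR, which restrains glycolysis, -1.02 and -1.78. TP53INP1 had the highest differences of the p53 list, 0.63 and 0.41, without a call. Of 19 other growth-arrest and antiproliferative genes, 2 rose in both fractions, where 0.885% of all genes did, and 0 fell. NDRG1, a stress-responsive gene named for its downregulation by MYC-family factors, rose by 1.37 in total RNA and by 1.14 in ER-RNA on the log2 scale. BTG1, an antiproliferative partner of the mRNA deadenylase, rose by 0.96 and by 1.22. HEXIM1, with -0.40 in total RNA, and BTG3, with -0.73 in ER-RNA, had the lowest differences of the growth-arrest list. The medians of this list were 0.12 and 0.09. With the SD from the scaled MAD the growth-arrest genes called up numbered 1 for total RNA and 2 for ER-RNA. The falls then numbered 1 and 0 for the other cyclins, 0 and 1 for the CDK and CDC25 genes, 0 and 0 for the RB, E2F and DREAM genes, 2 and 1 for the turnover genes and 0 and 1 for the p53 targets.

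The fractions do not share a scale, since the median of ER-RNA minus total RNA over all genes was -1.11 in control and -1.09 in hypoxia. With this median set to 0, CCNE2 and CDKN1C were the highest of the 10 genes in ER-RNA relative to total RNA in control cells, at 1.11 and 0.94, above 91.9% and 89.2% of all genes. The position of CCNE2 rests on total RNA values below the array medians, which did not pass the expression filter. CCND1 was the lowest, at -0.71 in control and -0.51 in hypoxia, and the middle 50% of genes in control cells lay between -0.43 and 0.44. MXI1 stood at 0.54 in control and 0.70 in hypoxia, CCNG2 at 0.54 and 0.36, and BHLHE40 at -0.30 and -0.29. In control, CCNG2 and MXI1 thus held nearly the same position and BHLHE40 a lower one, and each of them rose in both fractions.

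Between control and hypoxia the ER-RNA value relative to total RNA, as measured and not centred, changed most for CDKN1A, by 0.45, and for CCNE2, by -0.31. For CCNG2, MXI1 and BHLHE40 it changed by -0.15, 0.18 and 0.03. Normalizing all 4 arrays to the same quantiles lowered several of these positions, for instance that of CCND1 in control to -1.34 and that of BHLHE40 to -0.73, so the sizes depend on how the fractions are scaled. Whether both fractions went through RMA together is not stated in the methods or labels.

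**Figure D4:**
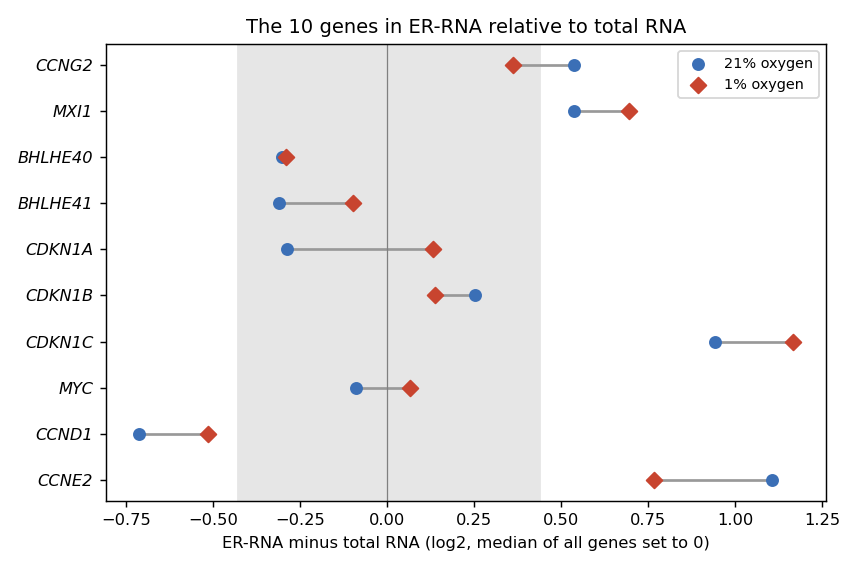
ER-RNA minus total RNA (log2, with the median of all genes set to 0) for the 10 genes at 21% oxygen (circles) and 1% oxygen (diamonds), with the middle 50% of all genes at 21% oxygen in grey. CCNE2 and CDKN1C were highest and CCND1 lowest, and CDKN1A shifted from -0.29 to 0.13. CCNE2 did not pass the expression filter in total RNA.

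The genes whose pair of log2 differences lay nearest to each called member were taken by Euclidean distance over 2 differences, so the likeness rests on these 4 arrays alone. For CCNG2 the nearest were GLRX, a glutaredoxin, with 1.20 for total RNA and 1.02 for ER-RNA, SLC2A3, a glucose transporter, with 1.21 and 1.06, and HERC3, a ubiquitin ligase, with 1.26 and 1.00. For MXI1 they were EFNA3, an ephrin, with 1.03 and 1.24, PAM, a peptide-amidating enzyme, with 1.07 and 1.20, and EGLN1, the main prolyl hydroxylase of HIF-1α, with 1.13 and 1.31. For BHLHE40 they were RAP2A with 0.92 and 0.96, WDR54 with 0.91 and 0.97, and SVBP with 1.00 and 0.97. For CCNE2 they were MRPL24, a mitochondrial ribosomal protein gene, with -0.81 and -1.12, LARP4 with -0.82 and -1.14, and SCRN3 with -0.80 and -1.11. The genes searched had passed the filter in both fractions, whereas CCNE2 had not in total RNA, with values of 7.33 and 6.51. The distances ran from 0.01 to 0.09 on the log2 scale.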

How the data were processed

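RNA from HT1080 cells was measured as total RNA and ER-RNA on 4 arrays, 1 per fraction and oxygen level, each a pool of 5 experiments. The deposited values are the authors' RMA output on the log2 scale for 33297 probe sets, and Partek 6.4 is named beside RMA in the submitters' processing notes. For the array annotation, the genome build was not given in the sources used here. Genes came from the platform annotation, in which 19460 probe sets name 1 gene and 1754 several, and 19429 of the former were matched to RefSeq by gene identifier. Where several probe sets named a gene, the one with the highest mean value was used.

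Hypoxia was compared with control within each fraction in R 4.3.3, using matrixStats 1.5.0 and limma 3.58.1. For the z-score, the SD over each pair of arrays was fitted to the mean of the pair by loess (span 0.75, degree 2) over all probe sets that passed the filter, which is a reading of the methods. With 1 array per group there is no test. The members, the 12 gene lists and the marker lists were chosen with earlier results of these data known. The text names the 10 members, from each list the genes with the highest and the lowest difference in each fraction among those that passed the filter and those called in both, and the 3 nearest genes of each called member. The 13 alternatives for the calls covered normalization, expression filter, SD, fold threshold and probe set per gene. Promoter windows came from a RefSeq table on GRCh38.p14, which held 8 windows of 6 members, and the 250 bases before the start were searched on both strands.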

Additional observations from a re-analysis of the deposited data

Results flagged for a closer look

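For 3 members hypoxia and control differed in opposite directions in the 2 fractions. With 1 array per group this contrast was not tested. CDKN1A had a log2 difference of -0.3542 for total RNA and 0.0907 for ER-RNA, and the latter was 0.0028 after median centring. BHLHE41 had -0.0909 and 0.1456, and CCND1 had -0.077 and 0.1461, and for both the total RNA value was above 0 after quantile normalization. None of the 6 values passed the rule for a change.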

How the results depend on the processing

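The number of members called up was 3 in each fraction. With the SD from the scaled MAD it was 0 in each, and after median centring it was 1 in ER-RNA, namely MXI1. The number called down in total RNA was 0, and 1 without the expression filter. In ER-RNA it was 1, and 0 under a filter that asked for both arrays over the 50% quantile or for 1 array over the 75% quantile. CCNE2 was the member concerned in these counts, and the filter itself shows the cause. Of 52 comparisons of a member count with an alternative, 46 stayed within 1.5 times, and no called difference changed sign. A drop from 3 calls to 2 and a count of 0 that stayed 0 were both taken as within this limit. The filter, SD and fold settings leave each difference as it is, so they could not have changed a sign. Of 624 comparisons of a list count with an alternative, 72 moved. Choosing the probe set by the lowest mean or averaging probe sets left every member value as it was, since each member has 1 probe set.

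No paired analysis was possible because each group has 1 array, and leaving out a replicate was not possible for the same reason. Signal over background limits CCNE2, which lay below the array median on both total RNA arrays. Depth does not apply to arrays. ER-RNA relative to total RNA moved by over 0.1 in 37 of 60 comparisons with another scaling.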

Other observations

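FOXO factors act in quiescence and stress and are known to control CCNG2, CDKN1B and MXI1 in some cells. Of 15 genes of these factors and their targets, 14 passed the filter in each fraction. None rose in either fraction, where 2.32% (total RNA) and 1.12% (ER-RNA) of all genes did. With 14 genes that could be called, 0 rises does not set the list apart from these shares. In total RNA 2 fell, where 7.45% of all genes did, and in ER-RNA 1 fell, where 8.25% did. BCL2L11, a BH3-only death gene, fell in both, with log2 differences of -1.10 and -0.77, beside the 4.56% of all genes that did. FBXO32, a muscle ubiquitin ligase, fell in total RNA with -0.99, and its ER-RNA difference of -0.80 (z-score -2.53) was not called. TXNIP, an inhibitor of thioredoxin and of glucose uptake, had the highest differences, 0.67 and 0.78, with z-scores of 2.78 and 2.52. In total RNA 11 of the 15 and in ER-RNA 12 of the 15 were above 0, with medians of 0.28 and 0.27. Of all genes measured, 53.1% and 55.3% were above 0, and of the genes that passed the filter 44.3% and 47.0%.

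Of 16 AP-1 and immediate early growth genes, which respond to growth factors, 1 rose in total RNA, none rose in ER-RNA and 0 fell in either fraction, where 2.32% of all genes rose in total RNA. FOSL1, an AP-1 subunit of the FOS family, had log2 values of 10.04 in control and 11.67 in hypoxia in total RNA, a 3.10-fold rise with a z-score of 5.97, and 10.46 and 11.06 in ER-RNA, where the z-score was 1.97. JUND had the highest difference in ER-RNA, 0.80, with 0.57 in total RNA, and SRF the lowest in both, -0.42 and -0.29. The medians of the list were 0.12 and 0.28.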
